A study of Mus musculus with 5 samples.

Results

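The Rhox genes encode homeobox transcription factors and lie side by side on the mouse X chromosome, most of them transcribed in reproductive tissues. Of 7 Rhox genes listed for this description, 5 had a row among the 25631 transcript rows of the table, found by matching each row's RefSeq accession to a gene symbol. These were Rhox6, Rhox8, Rhox9, Rhox10 and Rhox11, with 1 row each. Rhox5 and Rhox13 matched no row by accession and were not analysed here. Rows of 10 other Rhox genes were matched as well, so the table held 15 Rhox genes in all.

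Whole mouse testes at postnatal day 9 were hybridised to single-colour Cy3 expression arrays, 1 array a sample. The groups were 1 testis sample with Dmrt1 knocked out by DHH-cre, 3 with Dmrt1 knocked out by NGN-cre, and 1 Cre-negative control, whose label also names NGN-cre. No Cre-negative control carrying the DHH-cre label was analysed here, so both deletions were set against the same array. Dmrt1 encodes a DM-domain transcription factor made in Sertoli cells and germ cells of the testis. The labels do not say which promoters NGN-cre and DHH-cre stand for, nor whether a sample held 1 animal or a pool.

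The cluster is usually described as a run of subclusters, alpha with Rhox1 to Rhox4, beta with Rhox5 to Rhox9 and gamma with Rhox10 to Rhox13. Rhox5 and Rhox8 are known in the mouse as genes of Sertoli cells, the somatic cells that nurse the germ cells, and Rhox5 is a classic target of the androgen receptor there. Rhox10 is known from spermatogonia, where it acts in the formation of the stem cell pool, and Rhox13 also from germ cells. Rhox6 and Rhox9, first named Psx1 and Psx2, are best known from the placenta. DNA methylation is known to keep genes of the cluster silent in many mouse tissues.

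Array medians were alike, at 721 to 730 intensity units. Pearson correlations of log2 values across transcripts were 0.989 to 0.9931 within the NGN-cre knockouts, and the DHH-cre array reached 0.9745 to 0.9809 with the other 4. The control reached 0.986 to 0.9902 with the NGN-cre knockouts. NGN-cre replicate 3 stood at 0.9902 with the control, at 0.9916 with NGN-cre replicate 1 and at 0.989 with NGN-cre replicate 2. The number of the DHH-cre array in its title lies apart from those of the other 4, so array batch and DHH-cre deletion cannot be told apart. Dmrt1, the targeted gene, had log2 intensities of 12.65 in the DHH-cre knockout, 12.25, 12.46 and 12.43 in the NGN-cre knockouts, against 13.53 in the control. Every knockout array was thus below the control, at 54.2% of its intensity for DHH-cre and 45.1% for the NGN-cre mean. The NGN-cre difference of -1.15 (SE 0.22) did not pass across the array (limma, Benjamini-Hochberg adjusted p = 0.281). Defining markers of the labelled tissue were present. The 17 measured Sertoli cell markers summed to 178856 intensity units in the DHH-cre knockout, 205678 to 224547 in the NGN-cre knockouts, against 262796 in the control. The 7 measured pan-germ cell markers summed to 164753, to 141320 to 156495 and to 115564 units in those groups. Such sums weigh bright genes most. In the DHH-cre knockout the bright Sertoli cell markers Clu and Cst9 differed from the control by -0.98 and -3.56, but Wt1 and Gata4 by 0.12 and -0.15. The median of the 17 was -0.38.

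In the knockouts, Rhox11 and the pair of measured Rhox3 copies had the largest higher values of the cluster. Rhox8 and Rhox10, the measured representatives of the Sertoli cell and germ cell members, were both lowest in the DHH-cre knockout. In that array 32.5% of all transcripts lay below all 3 NGN-cre arrays. No Rhox transcript passed an adjusted p of 0.05 in either tested comparison. Over all transcripts the share called was 0.00% where the NGN-cre knockouts were set against the control and 1.00% where the knockouts were set against each other (limma, Benjamini-Hochberg). In whole tissue, fewer cells of a type and less RNA per cell cannot be told apart.

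**Figure D1:**
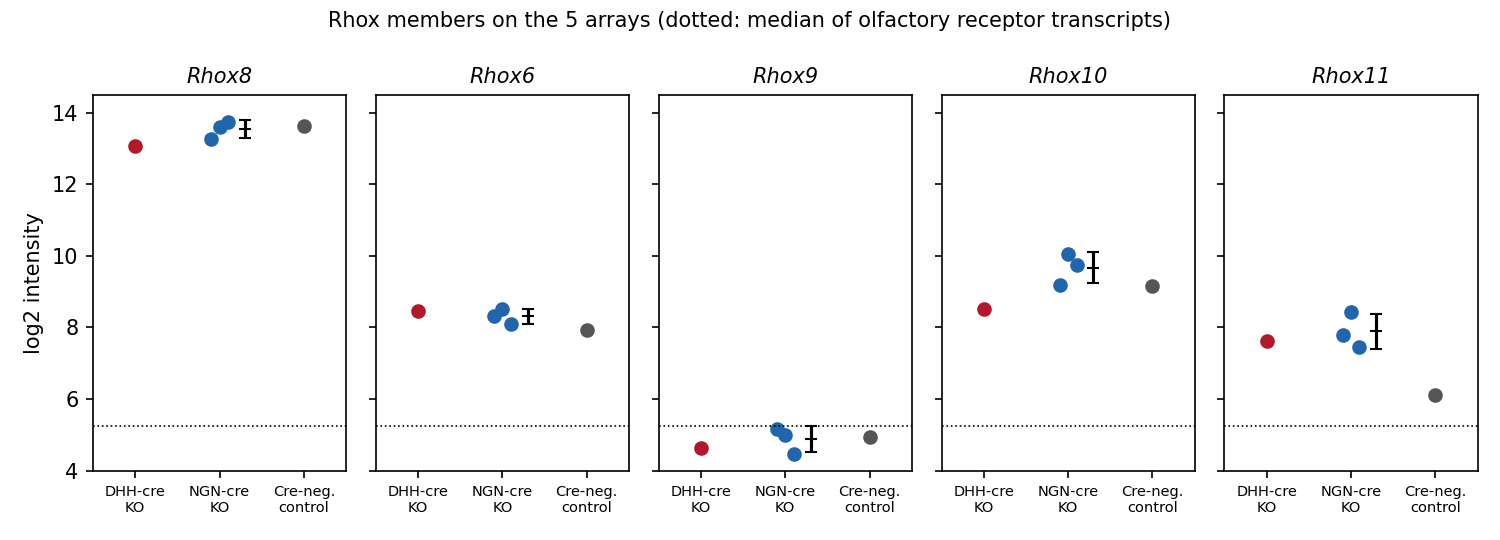
Log2 intensity of the 5 measured members on each array, with the DHH-cre knockout array, the 3 NGN-cre knockout arrays (mean and SD beside them) and the Cre-negative control array from left to right. Rhox11 is lowest in the control, at 6.11, while Rhox8 and Rhox10 are lowest in the DHH-cre knockout, at 13.06 and 8.52, and Rhox9 lies under the dotted line at 5.235, the median of olfactory receptor transcripts.

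Rhox8, the Sertoli cell member with a row, was bright on all arrays. Its log2 intensity was 13.06 in the DHH-cre knockout, 13.28, 13.61 and 13.75 in the NGN-cre knockouts, against 13.62 in the control. The control lay among the NGN-cre arrays, and the DHH-cre array lay below all of them. On the linear scale these are 8551 units in the DHH-cre knockout, 12066 ± 1980 (SD, n = 3) in the NGN-cre knockouts, against 12561 in the control. The NGN-cre knockout differed from the control by -0.07 (SE 0.26; limma, Benjamini-Hochberg adjusted p = 0.968). That sign turned to 0.06 without NGN-cre replicate 1. The DHH-cre knockout differed from the NGN-cre knockouts by -0.48 (SE 0.26; limma, Benjamini-Hochberg adjusted p = 0.383). Against the control the DHH-cre difference was -0.55, a 1.47-fold lower value with no replicate on either side.

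Genes of the same cells were set beside Rhox8. Of the 17 Sertoli cell markers, 16 had lower means in the NGN-cre knockouts than in the control, with a median difference of -0.34, against -0.02 over all transcripts, and none passed. Among them were Tsx, an X-linked testis gene, at -1.13 and Fshr, the follicle-stimulating hormone receptor gene, at -0.71. In the DHH-cre knockout 15 of the 17 were below the control, with a median of -0.38. Set against the NGN-cre knockouts, 12 of the 17 were lower with DHH-cre, with a median of -0.13. Between the knockouts 2 of the 17 passed, both lower with DHH-cre, where 1.00% of all transcripts passed. These were the cystatin gene Cst9 at -3.06 (limma, Benjamini-Hochberg adjusted p = 0.0153) and Fshr at -1.55 (adjusted p = 0.0369). Fshr no longer passed without NGN-cre replicate 1 or 2 (limma, adjusted p = 0.115 and 0.0539) or with a pseudocount of 64 (0.059). Rhox8 therefore had a smaller difference from the control in the NGN-cre knockouts than the median Sertoli marker, and a larger one in the DHH-cre knockout, neither of which was tested.

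Androgen-responsive genes of Sertoli cells are of interest because Rhox5 and Rhox8 respond to testosterone in the mouse. All 10 listed genes were measured, and 9 had lower means in the NGN-cre knockouts than in the control, with a median difference of -0.41. The largest differences were -1.56 (SE 0.76) for the glycosyltransferase gene B4galnt1 and 1.29 (SE 0.24) for the formin gene Fhod3. B4galnt1 varied widely between the NGN-cre replicates, with log2 intensities of 11.84, 10.81 and 9.54 against 12.3 in the control. No gene of the list passed. In the DHH-cre knockout 7 of 10 were below the control, with a median of -0.87. By a size rule, a difference from the control of at least 2-fold that exceeded the range of the 3 NGN-cre arrays, 4 of these were lower and 1 was higher. The rule was met downward by 4.81% and upward by 5.55% of all transcripts. The 5 genes reported as acting downstream of Rhox5 in the mouse, among them the insulin gene Ins2 and the netrin receptor gene Unc5c, had medians of -0.21 in the DHH-cre knockout and -0.10 in the NGN-cre knockouts against the control. Retn, which gives the DHH-cre median, and Adipoq in the DHH-cre knockout and the control had log2 intensities of at most 5.09, dim enough that these medians carry no size that can be read. Ins2 stood at -0.57 and Unc5c at -0.51 in the DHH-cre knockout, and no gene of that list met the size rule or passed a test.

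Rhox10, the germ cell member with a row, had a log2 intensity of 8.52 in the DHH-cre knockout, 9.20, 10.06 and 9.75 in the NGN-cre knockouts, against 9.15 in the control. The DHH-cre array was the lowest of the 5, and all 3 NGN-cre arrays were above the control, replicate 1 by only 0.05. On the linear scale the values were 368 units in the DHH-cre knockout, 839 ± 238 (SD, n = 3) in the NGN-cre knockouts, against 569 in the control. Between the knockouts the difference was -1.15 (SE 0.34), a 2.22-fold lower value with DHH-cre (limma, Benjamini-Hochberg adjusted p = 0.151). Across the alternatives that adjusted p lay between 0.112 and 0.194. The NGN-cre difference from the control was 0.52 (SE 0.34; limma, Benjamini-Hochberg adjusted p = 0.793). The DHH-cre difference from the control was -0.63, short of the size rule.

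Spermatogonial markers were given with Rhox10. The 16 measured genes of undifferentiated spermatogonia summed to 44737 intensity units in the DHH-cre knockout, 77610 to 85351 in the NGN-cre knockouts, against 84821 in the control. Of these, 15 were below the control in the DHH-cre knockout, with a median of -1.05, and 11 had lower means in the NGN-cre knockouts, with a median of -0.34. Between the knockouts 15 of 16 were lower with DHH-cre, with a median of -0.81, and 2 passed, where 1.00% of all transcripts did. These were the pluripotency factor gene Pou5f1 at -3.18 (limma, Benjamini-Hochberg adjusted p = 0.0102) and the E-cadherin gene Cdh1 at -1.99 (adjusted p = 0.0484). Cdh1 no longer passed without NGN-cre replicate 1 or 2 (limma, adjusted p = 0.119 and 0.0645), with the filter on dim rows (0.0533) or with a pseudocount of 64 (0.0829). Against the control, Pou5f1 differed by 0.8 in the NGN-cre knockouts and by -2.38 in the DHH-cre knockout. Cdh1 differed by 1.3 and -0.69 in those groups, the latter short of the size rule. Like Rhox10, both were thus above the control with NGN-cre and below it with DHH-cre, though neither NGN-cre difference passed. They were among 5 of the 16 markers with higher NGN-cre means, while 11 had lower ones. In the NGN-cre knockouts Rhox10 lay on the other side of the control from the median of the 16 markers, and in the DHH-cre knockout on the same side. The 5 measured genes of differentiating spermatogonia had medians of -0.24 in the DHH-cre knockout and 0.23 in the NGN-cre knockouts against the control. Their part in the values of Rhox10 was not tested.

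**Figure D2:**
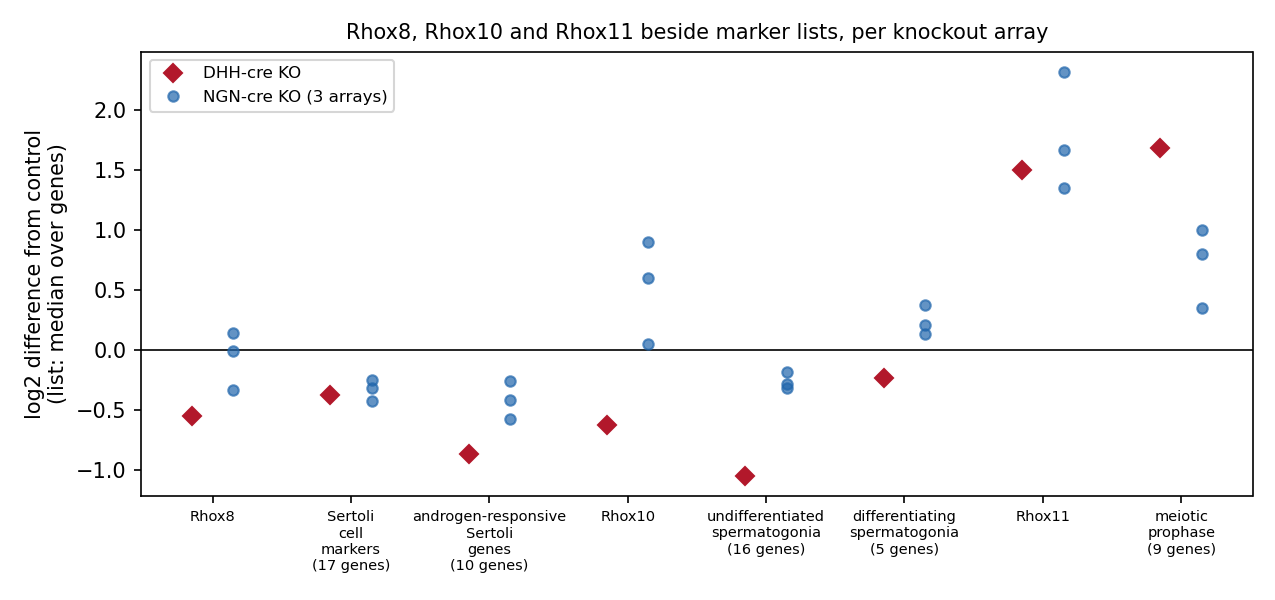
Log2 difference from the control array for Rhox8, Rhox10 and Rhox11, and the median difference over the genes of 5 marker lists, for the DHH-cre knockout array (diamonds) and each of the 3 NGN-cre knockout arrays (circles). Rhox10 lies above 0 in the NGN-cre arrays, where the undifferentiated list lies below it, and both lie below 0 in the DHH-cre array, at -0.63 and -1.05.

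The comparison of Sertoli cell with germ cell members was reduced to 1 gene on each side, Rhox8 and Rhox10. The difference of Rhox8 from the control less that of Rhox10 was 0.08 in the DHH-cre knockout and -0.39, -0.91 and -0.46 in the NGN-cre knockouts, with a mean of -0.59 ± 0.28 (SD, n = 3). In all 3 NGN-cre arrays Rhox10 stood higher relative to Rhox8 than in the control, whereas in the DHH-cre array both genes were lower by similar amounts. No p is given for this contrast, since 1 gene stood for each cell type and all 4 values share the control array.

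Rhox11, a gamma subcluster gene that neighbours Rhox10, had the lowest value of the 5 arrays in the control. Its log2 intensity was 7.61 in the DHH-cre knockout, 7.78, 8.44 and 7.46 in the NGN-cre knockouts, against 6.11 in the control. All 4 knockout arrays were above the control, by 1.5 for DHH-cre and by 1.67, 2.32 and 1.35 for the NGN-cre replicates, and the DHH-cre array lay inside the NGN-cre range. In linear units the values were 196 in the DHH-cre knockout, 248 ± 88.1 (SD, n = 3) in the NGN-cre knockouts, against 69 in the control. The NGN-cre knockout was 3.43-fold higher (log2 1.78, SE 0.38), which did not pass across the array (limma, Benjamini-Hochberg adjusted p = 0.336). Without NGN-cre replicate 3 it passed, at 2.0 (limma, Benjamini-Hochberg adjusted p = 0.0374), as did 0.741% of all transcripts in that direction. Across the alternatives its adjusted p lay between 0.0374 and 0.653. The DHH-cre knockout was 2.83-fold higher than the control and met the size rule, though not with a pseudocount of 64, at 0.96. Between the knockouts the difference was -0.28 (SE 0.38; limma, Benjamini-Hochberg adjusted p = 0.744).

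Rhox6 and Rhox9 had small differences. Rhox6 had a log2 intensity of 8.46 in the DHH-cre knockout, 8.33, 8.52 and 8.10 in the NGN-cre knockouts, against 7.92 in the control. The control was again the lowest array, and the NGN-cre difference was 0.39 (SE 0.25; limma, Benjamini-Hochberg adjusted p = 0.780). Rhox9 had a log2 intensity of 4.63 in the DHH-cre knockout, 5.16, 5.0 and 4.47 in the NGN-cre knockouts, against 4.94 in the control. All 5 values lay below 5.235 on the log2 scale, which was the median of 1064 olfactory receptor transcripts and is a level taken as a guide to unspecific signal. Its differences, -0.06 for NGN-cre and -0.31 for DHH-cre against the control, carry no size that can be read. Rhox6 and Rhox9 differed from each other in that only Rhox6 stood above this guide level on the 5 arrays.

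Among all 5 members, the control lay below every knockout array for Rhox6 and Rhox11, that is 2 of 5, while 19.8% of all transcripts had that order. The DHH-cre array lay below every NGN-cre array for Rhox8 and Rhox10, also 2 of 5, against 32.5% of all transcripts. With so few genes neither count was tested.

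The other 10 Rhox genes widen the picture of the cluster. The 4 measured Rhox4 copies, Rhox4a, Rhox4c, Rhox4d and Rhox4f, were bright and had similar values. Their log2 intensities were 11.20 to 11.64 in the DHH-cre knockout, 11.51 to 12.29 in the NGN-cre knockouts and 11.26 to 11.47 in the control. Each copy was above the control in 3 of 3 NGN-cre arrays, with differences of 0.60 to 0.68, and near it in the DHH-cre array, at -0.18 to 0.17. The adjusted p of these NGN-cre differences was 0.601 to 0.673 (limma, Benjamini-Hochberg). Over all transcripts 25.7% were above the control in all 3 NGN-cre arrays. Of the 250 bases upstream, 243 were identical after alignment between Rhox4c and Rhox4f and 208 between Rhox4a and Rhox4c. Transcript and probe sequences were not compared, so whether the 4 rows report separate signals was not tested.

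The measured Rhox3 copies, Rhox3a and Rhox3f, stood higher in all 4 knockout arrays. Rhox3f had a log2 intensity of 8.43 in the DHH-cre knockout, 7.68, 7.47 and 7.27 in the NGN-cre knockouts, against 5.95 in the control. The DHH-cre array was the highest and the control the lowest, each of these 2 groups being 1 array. Over all transcripts 25.7% had all 3 NGN-cre arrays above the control. The DHH-cre array lay above all 3 NGN-cre arrays for 8500 of 25631 transcripts. The NGN-cre difference was 1.53 (SE 0.25; limma, Benjamini-Hochberg adjusted p = 0.240), and without NGN-cre replicate 3 it was 1.63 and passed (limma, Benjamini-Hochberg adjusted p = 0.0333). At that setting 0.741% of all transcripts passed in that direction. Without replicate 1 or 2 the NGN-cre difference was 1.43 or 1.53 and did not pass. The DHH-cre difference from the control was 2.49, or 5.60-fold, on a control value of 62 units. With a pseudocount of 64 it was 1.7, and the NGN-cre difference from the control was 0.95. The DHH-cre difference from the NGN-cre knockouts was 0.95 (SE 0.25; limma, Benjamini-Hochberg adjusted p = 0.117). Rhox3a had a log2 intensity of 7.10 in the DHH-cre knockout, 5.92, 6.53 and 5.95 in the NGN-cre knockouts, against 5.0 in the control. Its order of the groups was the same, but its control value lay below the olfactory receptor median, so the size of its difference is uncertain. With DHH-cre that difference was 2.09, and 1.06 with a pseudocount of 64. Both copies met the size rule in the DHH-cre knockout. Of the 250 bases upstream of Rhox3a and Rhox3f, 147 were identical after alignment, and whether their rows share signal was not tested.

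Rhox12, the gamma subcluster gene next to Rhox11, ran the other way. Its log2 intensity was 7.06 in the DHH-cre knockout, 8.48, 7.93 and 8.22 in the NGN-cre knockouts, against 8.56 in the control. The control was the highest array and the DHH-cre array the lowest, though NGN-cre replicate 1 differed from the control by only -0.08. The NGN-cre difference from the control was -0.35 (SE 0.27) and did not pass. The control lay above all 4 knockout arrays for 5906 of 25631 transcripts. The DHH-cre knockout was 2.82-fold below the control (log2 -1.5), which met the size rule, and 2.21-fold below the NGN-cre knockouts (log2 -1.14, SE 0.27; limma, Benjamini-Hochberg adjusted p = 0.102). With a pseudocount of 64 the Rhox12 difference of the DHH-cre knockout from the control was -1.16 and still met the rule. Rhox1, Rhox2a and Rhox7a showed smaller differences. Against the control these were 0.24, 0.55 and 0.34 in the DHH-cre knockout and 0.20, -0.04 and 0.45 in the NGN-cre knockouts, with adjusted p of 0.694 to 0.984 for the NGN-cre differences (limma, Benjamini-Hochberg).

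**Figure D3:**
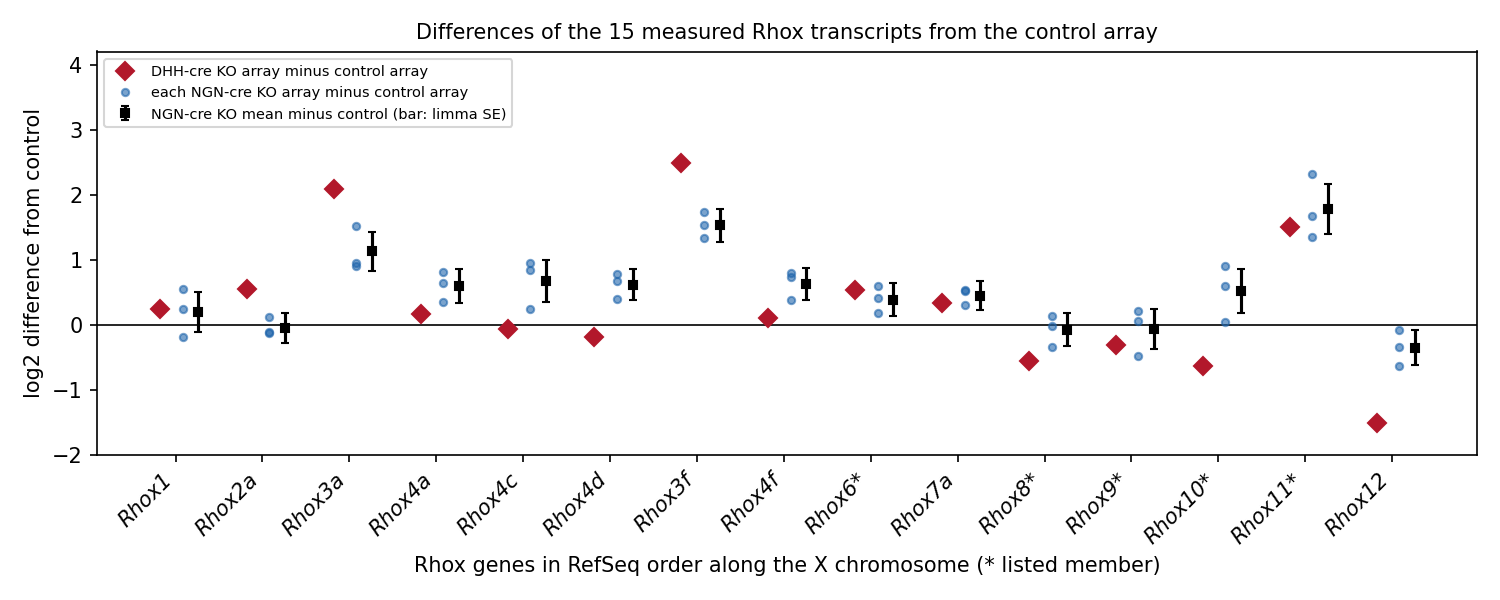
Log2 difference from the control array for the 15 measured Rhox genes in their RefSeq order along the X chromosome, with the DHH-cre knockout as diamonds, each NGN-cre knockout array as circles and the NGN-cre mean with its limma SE as squares. Rhox3a, Rhox3f and Rhox11 lie highest in both knockouts, the Rhox4 copies lie above 0 in the NGN-cre arrays and close to it in the DHH-cre array, and Rhox12 lies lowest in the DHH-cre array, at -1.5.

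Over the 15 Rhox transcripts the median difference from the control was 0.17 in the DHH-cre knockout and 0.52 in the NGN-cre knockouts, where the median of all transcripts was -0.02 in each. At an unadjusted p under 0.05, 5 Rhox transcripts were higher in the NGN-cre knockouts than in the control and 0 were lower, against 4.65% and 3.21% of all transcripts. These 5 were Rhox3a, Rhox3f, Rhox4d, Rhox4f and Rhox11, of which 4 belong to the copied genes. By the size rule 3 were higher in the DHH-cre knockout than in the control, Rhox3a, Rhox3f and Rhox11, and 1 was lower, Rhox12, against 5.55% and 4.81% of all transcripts. Both comparisons share the control array. In the direct comparison of the knockouts, 10 of the 15 were lower with DHH-cre, with a median of -0.28, and 6 had an unadjusted p under 0.05, where 18.3% of all transcripts did. Of these 6, Rhox2a, Rhox3a and Rhox3f were higher with DHH-cre and Rhox4d, Rhox10 and Rhox12 were lower.

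Transcripts from elsewhere on the X chromosome gave the setting of these values. The 641 X-linked rows had a median difference from the control of -0.01 in the DHH-cre knockout and 0.00 in the NGN-cre knockouts. Of the 10 measured genes nearest to the cluster, 5 on each side, 8 were above the control in the DHH-cre knockout, with a median of 0.29, and 6 had higher means in the NGN-cre knockouts, with a median of 0.04. Ndufa1, a subunit gene of respiratory complex I on one side, was the largest, at 1.54 in the DHH-cre knockout and 0.72 in the NGN-cre knockouts (limma, Benjamini-Hochberg adjusted p = 0.545). The next was Atp1b4 at 1.11 in the DHH-cre knockout. None of the 10 passed in either tested comparison.

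Marker lists of other cells were summed on each array for comparison. The 9 measured meiotic prophase genes summed to 139661 intensity units in the DHH-cre knockout, 75350 to 105753 in the NGN-cre knockouts, against 53400 in the control, and 8 of 9 were above the control on all 4 knockout arrays, as were 19.8% of all transcripts. The 4 measured macrophage genes summed to 7221 units in the DHH-cre knockout, 8576 to 11708 in the NGN-cre knockouts, against 6163 in the control. The 7 duct epithelium genes summed to 24400, to 29384 to 31887 and to 26625 units in those groups, and the 7 epididymis genes to 429, to 2742 to 3868 and to 944 units. Epcam carried most of the duct epithelium sum, at log2 intensities of 14.31 to 14.65, while no other gene of that list exceeded 11.7. Crisp1 and Spink8 carried the epididymis sum in the NGN-cre knockouts, since the list's median difference from the control was -0.65 in the DHH-cre knockout and -0.05 in the NGN-cre knockouts, where 3 genes had higher and 4 lower means. With DHH-cre, Crisp1 was lower than with NGN-cre by a log2 difference of -5.98 (limma, Benjamini-Hochberg adjusted p = 0.00104) and Spink8 by one of -4.04 (adjusted p = 0.0156, and 0.059 with a pseudocount of 64). The 7 Leydig cell genes summed to 102080 units in the DHH-cre knockout, 69114 to 90110 in the NGN-cre knockouts, against 82113 in the control, and the 5 peritubular myoid genes to 23578, to 28398 to 30141 and to 27231 units. The median difference of the peritubular list from the control was 0.20 in the DHH-cre knockout, with 3 of 5 genes higher though the sum was lower, and 0.22 in the NGN-cre knockouts. The part of these cells in the Rhox values was not tested.

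Upstream sequences are shown for the genes on which these results turn, Rhox3f and Rhox11 with higher values in all knockout arrays, and Rhox10 and Rhox12 with their lowest value in the DHH-cre knockout. They are the 250 bases before the annotated start, taken from RefSeq in the build GRCm38.p6, read 5′ to 3′ on the gene's own strand. Capitals mark CG dinucleotides, the sites of DNA methylation.
Rhox3f, chrX:37581102-37581351, plus strand: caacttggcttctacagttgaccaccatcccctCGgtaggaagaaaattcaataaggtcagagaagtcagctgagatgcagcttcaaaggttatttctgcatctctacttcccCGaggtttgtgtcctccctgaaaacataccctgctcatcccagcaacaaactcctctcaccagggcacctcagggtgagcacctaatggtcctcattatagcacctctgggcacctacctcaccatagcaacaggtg
Rhox10, chrX:38066225-38066474, plus strand: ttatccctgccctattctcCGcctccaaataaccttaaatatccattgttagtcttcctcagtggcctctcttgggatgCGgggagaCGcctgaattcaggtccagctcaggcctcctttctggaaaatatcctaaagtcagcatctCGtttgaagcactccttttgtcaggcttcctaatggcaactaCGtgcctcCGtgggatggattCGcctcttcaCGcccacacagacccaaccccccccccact
Rhox11, chrX:38085140-38085389, minus strand: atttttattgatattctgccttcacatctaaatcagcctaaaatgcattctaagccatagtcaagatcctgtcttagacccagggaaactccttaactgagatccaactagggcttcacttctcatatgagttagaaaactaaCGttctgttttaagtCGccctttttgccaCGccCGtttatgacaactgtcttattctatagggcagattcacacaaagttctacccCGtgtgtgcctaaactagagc
Rhox12, chrX:38110908-38111157, minus strand: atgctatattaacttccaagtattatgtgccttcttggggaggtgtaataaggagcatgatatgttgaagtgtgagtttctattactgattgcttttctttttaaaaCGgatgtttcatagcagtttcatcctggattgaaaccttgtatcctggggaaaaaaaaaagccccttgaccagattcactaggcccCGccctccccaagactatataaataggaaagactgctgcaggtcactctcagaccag
These windows held 2 CG dinucleotides for Rhox3f, 8 for Rhox10, 5 for Rhox11 and 2 for Rhox12, where the median of 32851 RefSeq windows of that length was 6. At least 1 CG was present in 92.1% of all windows. The 10 measured Rhox genes that had a window ranged from 0 CG in Rhox1 to 8 in Rhox10. Rhox3f and Rhox12, whose differences from the control ran in opposite directions, both held 2. Methylation was not measured, and a relation of CG counts to the differences was not tested. The core of the DMRT1 recognition motif, ACANTGT, which reads the same on both strands, was searched in windows of 300 bases that also took in the 50 bases after the start. None of the 10 Rhox windows held it, and 7.54% of all windows did, which says only that these letters are not in these windows.

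The genes whose profiles over the 5 arrays were most like those of Rhox10 and Rhox11 were sought among 15756 named genes. These were the named genes whose mean log2 intensity lay above the olfactory receptor median. The measure was the root mean square distance between log2 values after each gene's own mean was taken away. Rhox6, Rhox8 and Rhox9 spanned less than 1 log2 unit over the arrays and were left out. For Rhox11 the nearest were Inpp5d, a lipid phosphatase gene of blood cells, at a distance of 0.175 log2 units, Magea2, an X-linked MAGE family gene, at 0.216 and Rfx3, a transcription factor gene of ciliated cells, at 0.218. Magea2 had a log2 intensity of 13.66 in the DHH-cre knockout, 13.58, 13.91 and 13.50 in the NGN-cre knockouts, against 12.07 in the control. For Rhox10 they were BC061237 at 0.0902, Rtl3, an X-linked gene derived from a retrotransposon, at 0.124 and Lmntd1 at 0.133. BC061237 had log2 intensities of 4.46 to 6.12, around the olfactory receptor median. With 5 arrays, likeness of this kind describes these samples only.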

How the data were processed

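Total RNA from whole testes was labelled with Cy3 and hybridised to NimbleGen arrays, per the labels' protocols. The authors deposited linear-scale intensity values, 1 per transcript and array, and RMA is the tool given in the submitters' processing notes, without a version. RMA equalises the arrays and summarises probes, so shifts of total RNA cannot be seen and differences of dim transcripts are compressed. Probe positions are not given in the sources used here.

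The values were put on the log2 scale and not normalized again. Of 25631 rows, 17780 matched 1 symbol of a RefSeq table (GRCm38.p6) by accession without version and 7851 stayed unnamed. Where a gene had several rows, the brightest stood for it. The test was limma's (version 3.58.1, R 4.3.3, two-sided, Benjamini-Hochberg adjustment across all rows) on lmFit and eBayes, with 1 mean per group over the 5 arrays. Only the 3 NGN-cre arrays supplied residual degrees of freedom, 2 in all, so the same spread had to be assumed for the single arrays of the other groups. The DHH-cre knockout against the control was 1 array against 1 and had no test. A p-value here rests on the spread among the 3 NGN-cre arrays, which eBayes draws towards a value common to all rows. The labels do not say that samples were separate animals, so that spread may be technical. With 3 arrays against 1, the smallest permutation p is 0.25. The number of arrays limits the precision.

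The members and gene lists were chosen with earlier results of these data known. Named were all Rhox genes, Dmrt1, up to 2 genes per list and comparison with the largest difference, the 5 measured genes on each side of the cluster, and the 3 genes of most similar profile for members spanning at least 1 log2 unit. Of the lists, Cst12, Dmrtb1, Sycp2 and Cd68 had no matched row. Since Rhox5 and Rhox13 had none either, the planned contrast of pairs became Rhox8 against Rhox10. The fit was tested on simulated data. Alternatives were an intensity trend, quantile normalization, median centring, a filter on dim rows, a pseudocount of 64, other sets of arrays in the fit and leaving out each NGN-cre array.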

Additional observations from a re-analysis of the deposited data

Results flagged for a closer look

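For Rhox10, Rhox4c and Rhox4d the 3 NGN-cre knockout arrays all lay above the control and the DHH-cre knockout array lay below it. For Rhox10, NGN-cre replicate 1 was above the control by only 0.05. Over all transcripts 25.7% had all 3 NGN-cre arrays above the control, and 19.8% had all 4 knockout arrays above it. The flagged order lies within the first share and outside the second. The DHH-cre differences from the control were -0.63 for Rhox10, -0.06 for Rhox4c and -0.18 for Rhox4d, and the NGN-cre differences were 0.52, 0.68 and 0.62. The direct test between the knockouts gave -1.15, -0.74 and -0.80 in that order, and none passed (limma, Benjamini-Hochberg adjusted p = 0.151, 0.280 and 0.156). The DHH-cre values of Rhox4c and Rhox4d were closer to the control than the range of 0.70 and 0.38 among the NGN-cre arrays, and whether the rows of Rhox4 copies share signal was not tested.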

How the results depend on the processing

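The counts of transcripts called depended on the settings. Between the NGN-cre knockouts and the control 0 transcripts passed (limma, Benjamini-Hochberg), 1191 higher and 824 lower ones had an unadjusted p under 0.05, 66 passed with an intensity trend, and 0 to 238 passed when 1 NGN-cre array was left out. The 238 came without replicate 3 and included Rhox11 and Rhox3f. Between the knockouts 257 passed, 729 with an intensity trend, 10 with a pseudocount of 64 and 38 to 1321 with 1 NGN-cre array left out, 38 without replicate 1 and 1321 without replicate 3. No Rhox transcript passed in that comparison under any of these settings, the smallest adjusted p being 0.0604, for Rhox4c. By the size rule 2654 transcripts were apart in the DHH-cre knockout from the control, 4 of them Rhox genes, and 1667 with a pseudocount of 64, when Rhox11, at 0.96, fell short. The cause of these shifts was not tested. Signs turned for 4 small differences. With 1 NGN-cre array left out, the NGN-cre difference from the control ran from -0.12 to 0.01 for Rhox2a, from -0.21 to 0.14 for Rhox9 and from -0.18 to 0.06 for Rhox8, and the difference between the knockouts from -0.15 to 0.22 for Rhox1. The turned signs came without replicate 3, or for Rhox8 without replicate 1. The Rhox8 less Rhox10 contrast ran from -0.69 to -0.43 in the NGN-cre knockouts and from 0.00 to 0.08 in the DHH-cre knockout. No paired analysis was possible because the labels give no shared replicate numbers. Rhox9, and Rhox3a in the control, lay below the olfactory receptor median, which limits what their differences can show.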
